A study of Mus musculus with 19 samples.

Results

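Cathepsins are the peptidases of the lysosome, and 10 of them were followed here in cells washed from mouse airspaces: Ctsa, Ctsb, Ctsc, Ctsd, Ctsf, Ctsh, Ctsk, Ctsl, Ctss and Ctsz. The members were chosen by name, as the 10 rows with these gene symbols among the 56941 genes of the deposited tables, and all 10 passed the filter on low counts. RNA was sequenced in bulk in 19 libraries from frozen lavage pellets of female mice aged 7 to 8 weeks. The labels do not say that each library came from a separate mouse, so p-values measure the spread between these libraries, which may in part be technical. The groups were ICAM-1 null mice exposed to bioparticles (n = 5), naive ICAM-1 null mice (n = 5), exposed wild type C57Bl/6J mice (n = 5) and naive wild type mice (n = 4). ICAM-1 is an adhesion molecule of endothelium, epithelium and leukocytes. Exposure was oropharyngeal aspiration, under isoflurane, of 100 µL of pHrodo-labelled Staphylococcus aureus particles at 2.27 mg/mL, with lavage in PBS and 2 mM EDTA 1 h later. pHrodo is a dye that brightens as a phagosome acidifies. The labels do not say whether naive mice received vehicle or anaesthetic, nor give the background strain of the null line or whether the genotypes were littermates, so ICAM-1 loss and any other difference between the 2 mouse lines cannot be told apart. They call the cells alveolar macrophages and describe no sort or gate. The study's design text names 2 questions, what exposure changes in each genotype and how the genotypes differ in each state.

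A phagosome that has taken up a bacterium fuses with lysosomes, and cathepsins then digest its proteins at acid pH. They are made as inactive precursors, tagged with mannose 6-phosphate in the Golgi, carried to the lysosome by receptors, and activated there by cleavage. Cathepsin D is an aspartic endopeptidase and cathepsin A a serine carboxypeptidase, while the others are cysteine peptidases of the papain family. Among these, cathepsins S, L, K and F cut within chains. Cathepsins B, H, C and Z mainly trim chain ends, and cathepsin B can also cut within them. Cathepsin S is the chief enzyme that removes the invariant chain from MHC class II in antigen-presenting cells, and cathepsin K is the collagenase of osteoclasts. Many lysosomal genes carry the motif CACGTG near their start, the core of the element bound by the TFEB, TFE3 and MITF family.

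The stretch around the start of a cathepsin gene differed in that motif between members. RefSeq windows on build GRCm38.p6, each of 300 bases from 250 before to 50 after an annotated start, were matched by symbol for 8 of the 10 genes, not for Ctsb and Ctsh. CACGTG, which reads the same on both strands, was present in the windows of 4 of these 8 genes, Ctsa, Ctsd, Ctsf and Ctsl, and in those of 8.09% of all 27025 genes with a window. By windows this is 4 of 9 for the cathepsins, against 7.15% of all 32851. It was not found in the windows of Ctsc, Ctsk, Ctss and Ctsz. The window of Ctsd holds 2 copies, 245 and 98 bases upstream of the start, and that of the second annotated start of Ctsa holds it 12 bases upstream and again beginning 6 bases downstream. The windows of Ctsk and Ctss had a GC content of 43.7% and 44.0%, against 67.3% for Ctsd and 54.7% for that start of Ctsa. TGANTCA, the AP-1 motif, which also reads the same on both strands and can share its final CA with a CACGTG, was found in 0 of the 9 cathepsin windows and in 7.81% of all windows. A few are shown because they belong to the genes with the highest levels, the gene that differed most and a gene with paired motifs. CACGTG is in capitals and the rest in lower case, and each sequence runs 5′ to 3′ on its gene's strand.
Ctsd (chr7:142387778-142388077, minus strand): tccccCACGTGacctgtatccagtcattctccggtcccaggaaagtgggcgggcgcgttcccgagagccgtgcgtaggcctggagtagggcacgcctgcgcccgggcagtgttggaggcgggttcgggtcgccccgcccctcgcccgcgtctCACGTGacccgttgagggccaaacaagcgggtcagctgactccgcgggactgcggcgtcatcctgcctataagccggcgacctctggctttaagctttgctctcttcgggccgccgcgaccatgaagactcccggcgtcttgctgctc
Ctsa, second start (chr2:164833523-164833822, plus strand): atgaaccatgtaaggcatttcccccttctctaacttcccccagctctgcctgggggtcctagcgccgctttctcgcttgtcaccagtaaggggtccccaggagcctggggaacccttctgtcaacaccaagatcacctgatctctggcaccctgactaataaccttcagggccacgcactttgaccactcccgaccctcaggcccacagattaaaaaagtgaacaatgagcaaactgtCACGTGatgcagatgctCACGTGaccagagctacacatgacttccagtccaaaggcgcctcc
Ctsk (chr3:95498960-95499259, plus strand): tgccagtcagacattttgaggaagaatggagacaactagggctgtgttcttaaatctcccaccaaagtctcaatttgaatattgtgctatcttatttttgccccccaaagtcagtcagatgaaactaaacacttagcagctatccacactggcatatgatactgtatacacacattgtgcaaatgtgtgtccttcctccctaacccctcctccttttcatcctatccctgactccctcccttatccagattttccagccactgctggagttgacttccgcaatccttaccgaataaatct
Ctss (chr3:95526536-95526835, plus strand): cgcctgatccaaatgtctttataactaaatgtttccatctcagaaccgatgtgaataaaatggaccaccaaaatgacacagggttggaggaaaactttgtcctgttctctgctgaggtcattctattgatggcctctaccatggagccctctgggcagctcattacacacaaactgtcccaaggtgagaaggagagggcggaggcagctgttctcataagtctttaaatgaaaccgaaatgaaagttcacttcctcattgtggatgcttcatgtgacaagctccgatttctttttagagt

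Total estimated counts per library lay between 57.0 and 66.3 M for exposed null mice, between 59.8 and 78.8 M for naive null mice, between 42.6 and 61.0 M for exposed wild type mice and between 32.8 and 80.3 M for naive wild type mice, where 3 of the 4 libraries held at most 41.0 M. Over all groups, cathepsin counts per library ran from 568 for Ctsf to 377113 for Ctsd. The targeted gene, Icam1, averaged 10.8 ± 1.59 TPM (transcript abundance scaled for length and library size) in exposed null and 8.13 ± 2.63 in naive null mice, against 899 ± 155 in exposed and 74.6 ± 10.7 in naive wild type mice (SD). All 9 alveolar macrophage markers were detected, and their sum lay between 17432 and 23514 TPM in every library, of which Chil3 alone gave 14476 to 16821 TPM as group means. Members of the list moved both ways: Marco averaged 1844 TPM in naive null against 478 TPM in naive wild type mice and Car4 436 TPM against 975 TPM, while under exposure Fabp4 and Car4 rose and Siglecf fell in both genotypes. Wild type exposed library 5 was the shallowest of its group, was the lowest of its group for 8 of the 10 cathepsins, and had 2945 TPM of 6 epithelial markers, against 961 to 1563 TPM in the other exposed wild type libraries. Dixon's rule, which compares the gap beside an extreme value with the range, was applied to each cathepsin and their sum in each group. It marked 0 values in 44 sets. In bulk RNA, fewer cells of a type and less RNA per cell cannot be told apart.

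Changes are given on 2 scales. The log2 fold changes are from edgeR's quasi-likelihood test on estimated counts, with p-values adjusted (Benjamini-Hochberg) over 20501 genes, a threshold of 0.05 and a standard error (SE) derived from the F statistic. On that scale the median of all genes under exposure was 0.02 in both genotypes. On the log2(TPM + 1) scale, tested with limma, the same median was -0.32 in null and -0.34 in wild type mice, so a gene that kept pace with the typical gene shows a fall in TPM. The genotype comparisons had medians within 0.04 of 0 on both scales.

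The family made up 1.23 ± 0.0433% of all transcripts in exposed null, 1.44 ± 0.0852% in naive null, 1.11 ± 0.107% in exposed wild type and 1.28 ± 0.0547% in naive wild type mice (SD). The summed level ran from 11805 to 12877 TPM in exposed null and from 13053 to 15285 TPM in naive null mice, ranges that did not overlap. It ran from 9543 to 12382 TPM in exposed wild type and from 12360 to 13366 TPM in naive wild type mice, ranges that overlapped at their ends. Without wild type exposed library 5 the exposed wild type sums averaged 11454 ± 736 TPM (n = 4), against 11072 ± 1066 TPM with it. Ctss supplied 28.9 to 34.0% of the summed level and Ctsd 24.8 to 33.8%, as group means.

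**Figure D1:**
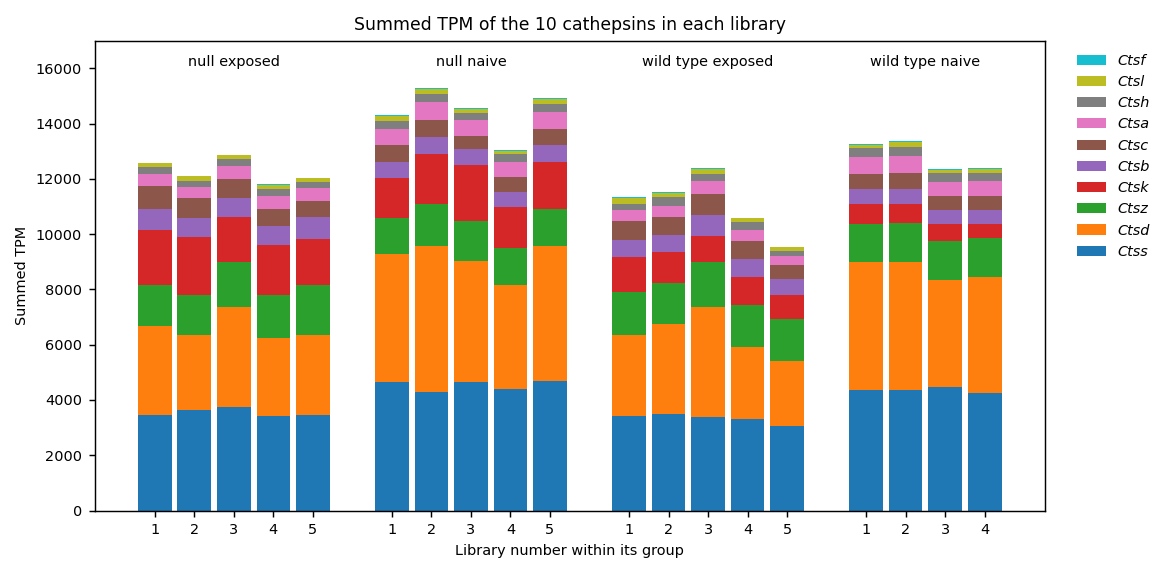
Summed TPM of the 10 cathepsins in each of the 19 libraries, stacked by gene (y axis: TPM; x axis: library number within its group). The Ctsk band is 12.5 to 17.4% of the bar in exposed null and 10.1 to 14.0% in naive null libraries, against 7.53 to 11.2% in exposed and 4.16 to 5.25% in naive wild type libraries.

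Levels spanned more than 2 orders of magnitude within the family. As means of the 4 group means, Ctss stood at 3945 TPM and Ctsd at 3753 TPM, and which of them led changed from library to library in 3 of the 4 groups. Ctsz followed at 1476 TPM and Ctsk at 1301 TPM. Ctsz exceeded Ctsk in all 5 exposed and all 4 naive wild type libraries, but in only 2 of 5 exposed and in 0 of 5 naive null libraries. Ctsb at 624 TPM, Ctsc at 606 TPM and Ctsa at 505 TPM came next, with Ctsb and Ctsc overlapping in every group. Ctsa lay below Ctsc in all exposed libraries and above it in all 4 naive wild type and 4 of 5 naive null libraries. Ctsh at 269 TPM, Ctsl at 154 TPM and Ctsf at 24.6 TPM closed the order. Ranked among all genes by mean TPM in naive wild type mice, Ctss was 19th, Ctsd 20th and Ctsk 222nd, while in naive null mice Ctsk was 59th.

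**Figure D2:**
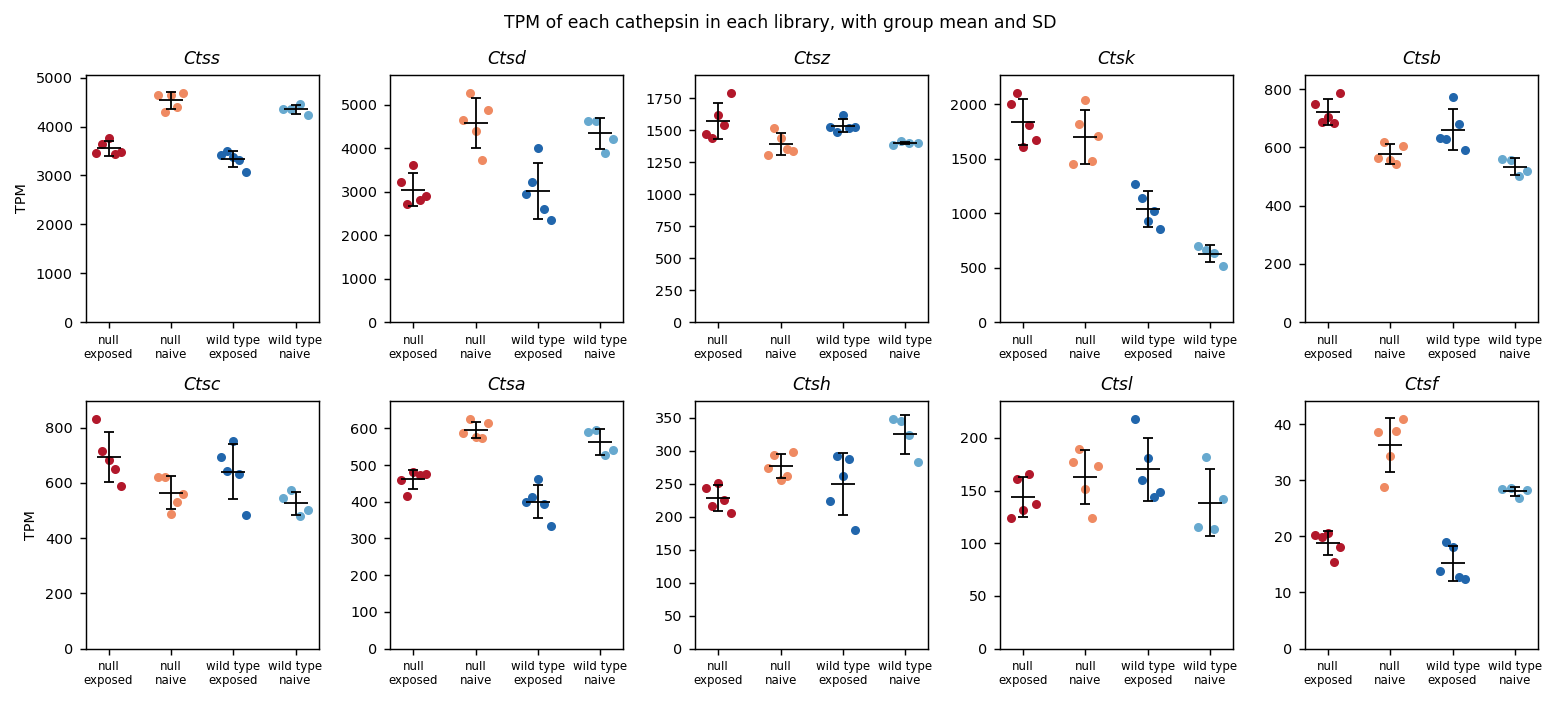
TPM of each cathepsin in each library (points), with the group mean and SD (black), in panels ordered by level, each with its own axis from 0. Ctsk is the panel in which null libraries lie wholly above wild type libraries in both states, and Ctss is nearly level within each group, with a coefficient of variation of 2.08 to 4.91%.

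Ctsk was the cathepsin that varied most, with a root mean square of 0.72 for its centred log2 CPM (depth-scaled counts) over the 19 libraries, against 0.38 for Ctsc, the next, and 0.08 for Ctss, the least variable. Its gene lies at chr3:95406567-95416673 on GRCm39, plus strand, 17.4 kb before Ctss at chr3:95434097-95463714. In naive null mice its TPM was 1447, 1818, 2039.5, 1478 and 1712, against 697, 666, 632 and 516 in naive wild type mice. Every naive null library exceeded every naive wild type library, by 2.71-fold between the means. The log2 fold change was 1.50 (SE 0.13, edgeR adjusted p = 5.95e-08). After exposure its TPM was 2000.3, 2103, 1605, 1812 and 1675 in null mice, against 1264, 1135, 932, 1016 and 852 in wild type mice. The ranges were again apart, by 1.77-fold between the means, with a log2 fold change of 0.86 (SE 0.12, edgeR adjusted p = 4.03e-05). On the log2(TPM + 1) scale these differences were 1.43 and 0.83, both past the threshold.

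The other cathepsins had smaller fold changes between genotypes. In naive mice 2 of 10 were higher in null mice, Ctsk and Ctsf, and 0 were lower, where 4.31% of all genes tested were called higher and 2.55% lower. TPM ranges were apart, higher, for the same 2 genes, against 4.48% of all genes. Ctsf, an endopeptidase, had 38.7, 28.9, 34.4, 38.8 and 40.9 TPM in naive null and 28.5, 28.7, 26.9 and 28.2 TPM in naive wild type mice, which were separated by a narrow gap. Its log2 fold change was 0.47 (SE 0.12, edgeR adjusted p = 0.0156). That call was lost on the log2(TPM + 1) scale (limma adjusted p = 0.0871) and without wild type naive library 4 (edgeR adjusted p = 0.0562). Without the 3 shallow wild type naive libraries, which leaves wild type naive library 4 alone in its group, the log2 fold change was 0.64.

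In exposed mice 3 of 10 were higher in null mice, Ctsk, Ctsa and Ctsf, and 0 were lower, where 4.43% of all genes were called higher and 4.04% lower. Only the TPM ranges of Ctsk were apart, against 3.03% of all genes. Ctsa, the carboxypeptidase that also shields neuraminidase and beta-galactosidase in a complex, had 458, 415, 482, 473 and 475 TPM in exposed null and 399, 412, 462, 395 and 334 TPM in exposed wild type mice. The wild type library at 462 TPM was the only one to reach the null range. EdgeR gave a log2 fold change of 0.27 (SE 0.06, edgeR adjusted p = 0.00388), 0.24 without wild type exposed library 5, and 0.21 on the log2(TPM + 1) scale, where it did not pass (adjusted p = 0.0747). The Ctsf difference of 0.37 (SE 0.11, edgeR adjusted p = 0.0435) lost its call without wild type exposed library 5 (adjusted p = 0.104), without any 1 of 10 others of the 19 libraries, and on the log2(TPM + 1) scale (adjusted p = 0.122). There, Ctsk was the single cathepsin called in each state, where 4.12% of genes were called higher in naive and 4.36% in exposed null mice. By edgeR the median over the 10 cathepsins was 0.16 in naive and 0.15 in exposed mice, against 0.01 and -0.00 over all genes. On the log2(TPM + 1) scale it was 0.09 and 0.11, against -0.04 and -0.03. Of 6 neutrophil markers, 5 were tested by edgeR. Of these, 3 were higher and 0 lower in naive null mice, and 3 were higher and 2 lower in exposed null mice, beside the all-gene shares above. Csf3r, S100a8 and Cxcr2 had higher mean TPM in null mice in both states, with Cxcr2 at most 11.3 TPM in any group. Ly6g, Retnlg and S100a9 averaged at most 8.25 TPM in any group. S100a9 averaged 2.89 TPM in exposed null against 8.25 TPM in exposed wild type mice, and Retnlg 0.0389 against 0.921 TPM. The 6 summed to 136 to 148 TPM in naive null and 44.9 to 58.9 TPM in naive wild type libraries, and to 90.1 to 117 TPM in exposed null and 38.8 to 76.5 TPM in exposed wild type libraries. Markers of red cells summed to 72.2 to 197 TPM in exposed null and 214 to 1441 TPM in exposed wild type libraries. No marker of either list was at 0 in every library, and the part of these cells in the genotype differences was not tested.

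The genes around Ctsk, a window of 500 kb either side chosen after its values were seen, held 59 other tested genes. Of these, 5 were called in naive and 6 in exposed mice, where 6.86% and 8.48% of all genes were called in either direction, so the window lay near the background. Ctss, the nearest protein-coding neighbour downstream, had a log2 fold change of 0.12 (SE 0.05, edgeR adjusted p = 0.237) in naive and 0.13 (SE 0.05, edgeR adjusted p = 0.136) in exposed mice. Arnt, which ends 2.02 kb upstream of Ctsk, had 0.00 and -0.27, neither past the threshold. Of the called genes, Tmod4, a tropomodulin gene 370.0 kb away, had log2 fold changes of 2.67 in naive and 3.08 in exposed mice, and Scnm1, 365 kb away, had -1.04 and -1.32. Ctsh, the one cathepsin on the chromosome of Icam1, lies 69.0 Mb from it and was not called between genotypes.

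Procr, Stra6l and Gpnmb were the genes whose pattern was most like that of Ctsk, with root mean square differences in centred log2 CPM (depth-scaled counts) of 0.25, 0.27 and 0.28 over the 19 libraries. Procr is the protein C receptor and Gpnmb a glycoprotein of macrophages and osteoclasts. Gpnmb averaged 485 TPM in exposed null, 522 TPM in naive null, 293 TPM in exposed wild type and 239 TPM in naive wild type mice, and Procr 21.0, 13.6, 10.7 and 6.64 TPM in the same order of groups. For Ctsc, the second most variable, the nearest were Ube2d3, Rap1b and Tgoln1, at 0.09 to 0.11. All libraries share the 4-group design, so these likenesses describe the same contrasts.

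Exposure raised 5 cathepsins in both genotypes on the edgeR scale, Ctsb, Ctsc, Ctsk, Ctsl and Ctsz, of which Ctsl in null mice flips to a fall of 0.17 on the log2(TPM + 1) scale (adjusted p = 0.280). It lowered Ctsf, and 4 cathepsins did not pass in either genotype. In null mice 21.4% of all genes were called higher and 23.4% lower, and in wild type mice 20.1% and 20.2%, so exposure calls were common at large. The median over the 10 members was 0.24 in null and 0.25 in wild type mice, against -0.23 and -0.13 on the log2(TPM + 1) scale. There, 3 were called higher in each genotype (12.8% of genes in null, 12.1% in wild type mice) and 5 lower (51.1% in both). TPM ranges were apart, higher, for 1 cathepsin in null mice (8.00% of genes) and 3 in wild type mice (8.20%), and apart, lower, for 5 in null mice (32.7%) and 3 in wild type mice (32.0%). The same 2 exposed groups had a higher sum of epithelial markers, 625 to 840.0 in exposed null against 396 to 569 in naive null libraries, and 961 to 2945 in exposed against 415 to 542 in naive wild type libraries. Scgb1a1 was the largest contributor, at 439.7 TPM in exposed and 205 TPM in naive null mice and at 1266 TPM in exposed and 247 TPM in naive wild type mice. Epcam, of the same list, averaged 110.0 TPM in exposed and 169 TPM in naive null mice, and 54.1 TPM in exposed and 84.7 TPM in naive wild type mice. The 5 dendritic cell markers summed to 14.3 to 28.0 TPM in exposed null against 6.57 to 12.1 TPM in naive null libraries, and to 22.6 to 37.5 TPM in exposed against 7.79 to 15.9 TPM in naive wild type libraries. Ccr7 was the largest contributor, at 14.3 TPM in exposed and 6.40 TPM in naive null mice. In wild type mice it averaged 19.7 and 4.93 TPM. Clec9a, of the same list, averaged 2.40 TPM in exposed against 4.13 TPM in naive wild type mice. In null mice it averaged 2.71 against 0.518 TPM. The part of these cells in the exposure results was not tested.

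**Figure D3:**
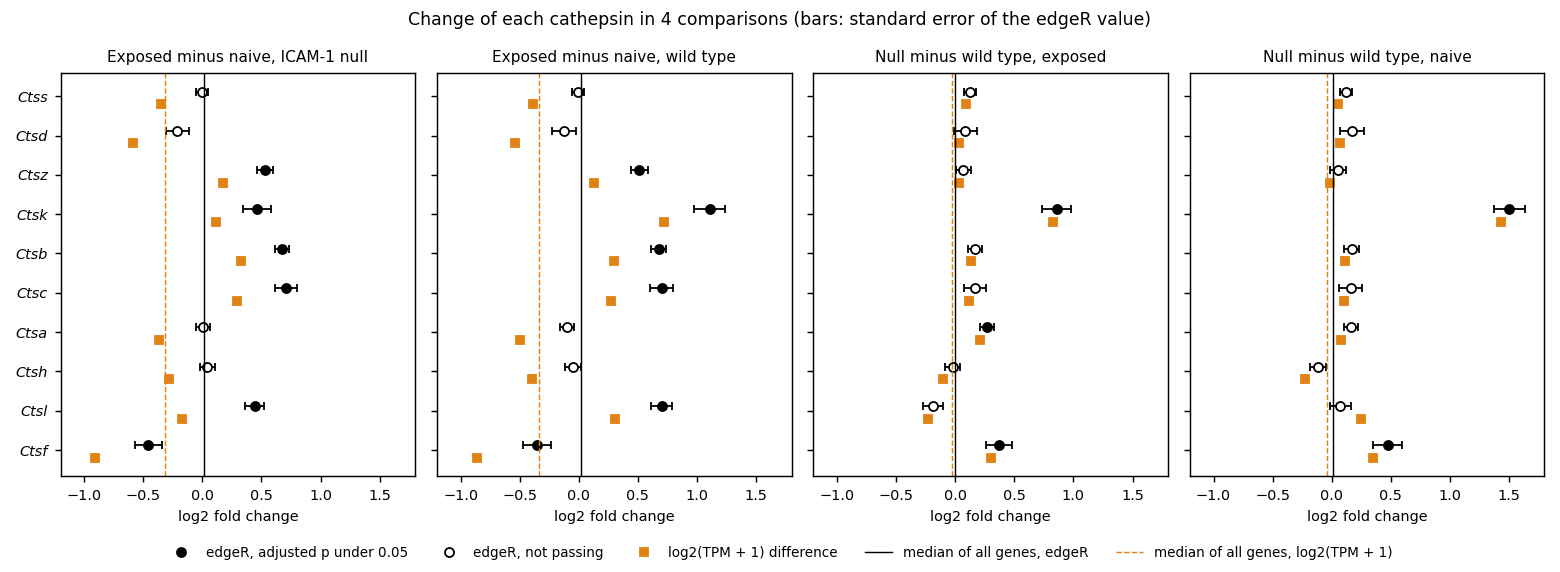
Log2 fold change of each cathepsin in 4 comparisons, with edgeR values and their SE (circles, filled where the adjusted p is under 0.05) above the log2(TPM + 1) differences (orange squares); vertical lines give the median of all genes on each scale. Under exposure every orange value lies left of its black one, as the orange median does, and Ctsa, Ctsh and Ctsl in null mice change sign between the scales.

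Cathepsin B rose in both genotypes. Ctsb had 749, 689, 704, 684 and 787 TPM in exposed null and 564, 620.2, 555, 542 and 605 TPM in naive null mice, every exposed library being higher. In wild type mice it had 633, 628, 772, 679 and 591 TPM after exposure and 559, 558, 501 and 518 TPM in naive mice, again without overlap. By edgeR the log2 fold change was 0.67 (SE 0.06, edgeR adjusted p = 6.08e-09) in null and 0.68 (SE 0.06, edgeR adjusted p = 2.39e-08) in wild type mice. The gain was smaller on the log2(TPM + 1) scale, at 0.32 and 0.30, and passed there too.

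Cathepsin C, the dipeptidyl peptidase that activates serine proteases of neutrophils and cytotoxic lymphocytes, also rose in both genotypes. Ctsc had 830.3, 714, 681, 648 and 589.9 TPM in exposed null and 622, 622, 487, 532 and 559 TPM in naive null mice, and these ranges overlapped. It had 692, 641, 752, 632 and 484 TPM in exposed and 544, 575, 482 and 501 TPM in naive wild type mice, where library 5 was the one exposed library within the naive range. The log2 fold change was 0.71 (SE 0.09, edgeR adjusted p = 1.93e-06) in null and 0.70 (SE 0.10, edgeR adjusted p = 7.33e-06) in wild type mice, and 0.76 in wild type mice without library 5. The log2(TPM + 1) difference was 0.29 in null mice (limma adjusted p = 0.0195) and 0.27 in wild type mice (limma adjusted p = 0.0373).

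Cathepsin Z, a carboxypeptidase, rose in both genotypes on the edgeR scale. Ctsz had 1469, 1440.4, 1622, 1540.4 and 1793 TPM in exposed null and 1309, 1521, 1441, 1356 and 1337 TPM in naive null mice. The wild type values were 1527, 1488, 1622, 1517 and 1529 TPM after exposure and 1388, 1416, 1399 and 1401 TPM in naive mice, so the ranges were apart in wild type and overlapped in null mice. EdgeR gave a log2 fold change of 0.53 (SE 0.07, edgeR adjusted p = 1.25e-06) in null and 0.51 (SE 0.07, edgeR adjusted p = 5.85e-06) in wild type mice. On the log2(TPM + 1) scale it was 0.17 in null mice (adjusted p = 0.0178) and 0.13 in wild type mice (adjusted p = 0.0806).

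Ctsk rose in wild type mice, to 852 to 1264 TPM after exposure against 516 to 697 TPM in naive mice, with a log2 fold change of 1.11 (SE 0.13, edgeR adjusted p = 5.58e-07). That was the largest edgeR fold change of the 10 members in wild type mice. In null mice the change was 0.46 (SE 0.12, edgeR adjusted p = 0.00299), and TPM overlapped, at 1605 to 2103 TPM after exposure and 1447 to 2039.5 TPM in naive mice. On the log2(TPM + 1) scale the wild type rise was 0.72 and passed, and the null value was 0.12 (adjusted p = 0.378).

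Ctsl gave different results on the 2 scales. Its level was 124, 161, 131, 166 and 138 TPM in exposed null and 178, 189, 152, 124 and 173 TPM in naive null mice, with lower values on average after exposure. In wild type mice it was 218, 160.3, 181, 144 and 149 TPM after exposure and 116, 182, 114 and 142 TPM in naive mice, and the ranges overlapped in both genotypes. The edgeR log2 fold change was 0.44 (SE 0.08, adjusted p = 0.000139) in null and 0.70 (SE 0.09, adjusted p = 1.50e-06) in wild type mice. The deposited counts, scaled by library total, divided by the deposited TPM ran from 1.01 to 1.66 for Ctsl across libraries. For Ctss this ratio ran from 0.675 to 0.751. It also varied for Ctsh, from 0.754 to 1.10, and for Ctsf, from 0.798 to 0.971 in naive wild type libraries alone. The 2 tables therefore do not scale together for Ctsl, and scale less closely for Ctsh and Ctsf than for Ctss. The wild type Ctsl value of 0.31 on the log2(TPM + 1) scale did not pass (adjusted p = 0.0726).

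The most abundant members, Ctss and Ctsd, did not pass under exposure on the edgeR scale. Ctss had 3454, 3646, 3764, 3432 and 3470.0 TPM in exposed null and 4645, 4293, 4647, 4409.9 and 4689 TPM in naive null mice, apart and lower. It had 3419, 3498, 3379, 3309 and 3069 TPM in exposed and 4362, 4362, 4463 and 4241 TPM in naive wild type mice, also apart. Its log2 fold change by edgeR was nonetheless -0.00 (SE 0.05) in null and -0.01 (SE 0.05) in wild type mice, and its fall of 0.35 and 0.39 on the log2(TPM + 1) scale compares with falls of 0.32 and 0.34 for the median of all genes. Ctsd, the aspartic peptidase, had 3231, 2715, 3616, 2809.9 and 2892 TPM in exposed null and 4648, 5275, 4388, 3736 and 4891 TPM in naive null mice, also apart. It had 2947, 3235, 4002, 2597 and 2342 TPM in exposed and 4636, 4638, 3891 and 4216 TPM in naive wild type mice, where 1 exposed library reached the naive range. The edgeR value was -0.21 (SE 0.10, adjusted p = 0.0764) in null and -0.12 (SE 0.10, adjusted p = 0.358) in wild type mice. Without null naive library 4, null exposed library 3 or wild type exposed library 3, the Ctsd fall in null mice passed (edgeR adjusted p between 0.0128 and 0.0429). Ctsd passed as lower in both genotypes on the log2(TPM + 1) scale, by 0.59 in null and 0.54 in wild type mice.

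Ctsa and Ctsh, an aminopeptidase, did not pass by edgeR either. Ctsa averaged 461 ± 26.8 TPM in exposed null and 596 ± 23.0 TPM in naive null mice, and 400.5 ± 45.9 TPM in exposed and 564 ± 34.8 TPM in naive wild type mice (SD), apart in both genotypes. Its edgeR log2 fold change was 0.00 (SE 0.06) in null and -0.10 (SE 0.06, adjusted p = 0.199) in wild type mice. Ctsh averaged 228 ± 19.2 TPM in exposed null and 276 ± 18.6 TPM in naive null mice, and 249 ± 47.0 TPM in exposed and 324 ± 30.0 TPM in naive wild type mice, with edgeR values of 0.04 (SE 0.06) and -0.05 (SE 0.07). On the log2(TPM + 1) scale both passed as lower in both genotypes, by 0.37 and 0.50 for Ctsa and by 0.28 and 0.40 for Ctsh in null and wild type mice.

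Ctsf was the one member called lower in both genotypes on both scales. It had 20.2, 19.9, 20.5, 15.4 and 18.0 TPM in exposed null against the naive null values above, and 13.8, 18.9, 18.1, 12.8 and 12.4 TPM in exposed wild type mice against the naive values above. No exposed library reached the naive range of its genotype. By edgeR the log2 fold change was -0.46 (SE 0.11, edgeR adjusted p = 0.00201) in null and -0.35 (SE 0.12, edgeR adjusted p = 0.0211) in wild type mice, and -0.91 and -0.86 on the log2(TPM + 1) scale. The wild type call was lost without wild type exposed library 5 (edgeR adjusted p = 0.0528). It was also lost without wild type exposed library 4 and without wild type naive library 1. Without the 3 shallow wild type naive libraries, which leaves wild type naive library 4 alone in its group, the log2 fold change was -0.20.

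Ratios of 2 cathepsins within a library do not depend on how libraries are scaled, but can depend on whether TPM or counts are used. Ctsk was 0.519 ± 0.0650 of the Ctss level in exposed null, 0.375 ± 0.0551 in naive null, 0.311 ± 0.0387 in exposed wild type and 0.144 ± 0.0167 in naive wild type mice (SD). The null and wild type ranges were apart in both states, as were the exposed and naive ranges in wild type mice (0.276 to 0.370 against 0.122 to 0.160). In null mice the ranges met, at 0.427 to 0.579 after exposure and 0.311 to 0.439 in naive mice. Ctsl was 0.0510 ± 0.00802 of Ctss in exposed and 0.0318 ± 0.00747 in naive wild type mice, with ranges apart, and 0.0406 ± 0.00569 and 0.0360 ± 0.00599 in exposed and naive null mice, with ranges that overlapped. From the deposited counts, not scaled for length, Ctsl relative to Ctss ran from 0.0727 to 0.0863 in exposed and from 0.0524 to 0.0707 in naive null mice, which are apart, and from 0.0852 to 0.106 in exposed and from 0.0507 to 0.0706 in naive wild type mice. Ctsk relative to Ctss gave the same separations from counts as from TPM.

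**Figure D4:**
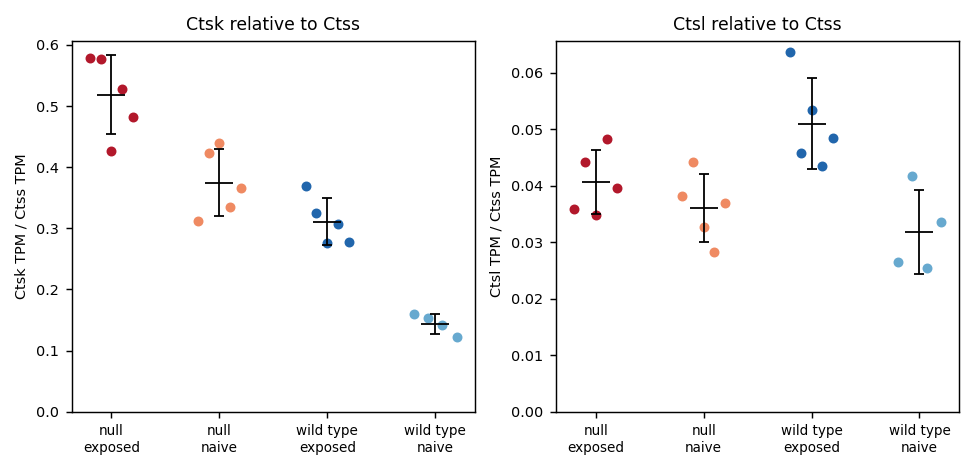
TPM of Ctsk (left) and Ctsl (right) divided by the TPM of Ctss in the same library (points), with group mean and SD. Ctsk relative to Ctss is highest in exposed null mice, at 0.427 to 0.579, and lowest in naive wild type mice, at 0.122 to 0.160.

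Whether the response to exposure differed between genotypes was tested by the interaction. By edgeR 0 of the 10 cathepsins passed, where 0.332% of all genes were called, and 2 had an unadjusted p under 0.05. For Ctsk the response was 0.64 lower in null than in wild type mice on the log2 scale, an interaction of -0.64 (SE 0.17, edgeR unadjusted p = 0.00135, adjusted p = 0.143). DESeq2 gave an adjusted p = 0.0395 for the same value, and limma on log2(TPM + 1) gave -0.60 with an adjusted p = 0.117. For Ctsl the interaction was -0.26 (SE 0.12, edgeR unadjusted p = 0.0407, adjusted p = 0.476). The other 8 lay between -0.10 and 0.11.

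The cathepsin inhibitors were led by cystatin B, the cytosolic inhibitor of cysteine cathepsins. Of 8 inhibitor genes 4 were tested, and exposure raised Cstb and Cst3 in null and Cstb alone in wild type mice. Cstb averaged 1038 ± 63.1 TPM in exposed null and 715 ± 58.5 TPM in naive null mice, and 915 ± 52.5 TPM in exposed and 683 ± 26.2 TPM in naive wild type mice (SD). Its log2 fold change was 0.89 (SE 0.08, edgeR adjusted p = 4.41e-09) in null and 0.80 (SE 0.08, edgeR adjusted p = 8.48e-08) in wild type mice. Cst3, the secreted cystatin C, had 0.19 in null mice, which becomes -0.16 on the log2(TPM + 1) scale, and 0.02 in wild type mice. No inhibitor was called between genotypes by edgeR. The neutrophil stefins Stfa1 and Stfa2 were listed at 0 in every library. Among 4 cathepsins outside the 10, Ctso, Ctsw, Ctsg and Ctse, the 4 group means were at most 25.2 TPM. Ctso fell under exposure in null mice (log2 fold change -0.30, edgeR adjusted p = 0.0139), Ctsw was called higher there (0.83, SE 0.32, edgeR adjusted p = 0.0425) at 3.81 ± 2.38 TPM after exposure and 2.78 ± 0.938 TPM in naive mice (SD), and edgeR made no other call among these 4.

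Among 10 genes that process and deliver cathepsins, 3 rose and 1 fell under exposure in null mice, and 4 rose and 1 fell in wild type mice, counts of 10 that lie beside all-gene shares of 21.4% higher and 23.4% lower in null and 20.1% and 20.2% in wild type mice. By limma on log2(TPM + 1), 0 rose and 6 fell in null mice and 2 rose and 5 fell in wild type mice. On that scale 12.8% of all genes rose and 51.1% fell in null mice, and 12.1% and 51.1% in wild type mice. The medians over the 10 genes were -0.25 and -0.29 there, against 0.07 and 0.18 by edgeR. M6pr, the small mannose 6-phosphate receptor, had log2 fold changes of 0.43 (SE 0.06, edgeR adjusted p = 3.44e-06) in null and 0.58 (SE 0.06, edgeR adjusted p = 2.16e-07) in wild type mice, and 0.06 (limma adjusted p = 0.417) and 0.20 (limma adjusted p = 0.0137) on the log2(TPM + 1) scale. Sort1, the alternative sorting receptor sortilin, fell by 0.47 and 0.33. Over all genes, edgeR called 4.31% higher and 2.55% lower in naive null mice, and 4.43% and 4.04% in exposed null mice. Of the 10 genes, 3 were higher in null mice in each state and 0 were lower. By limma on log2(TPM + 1), 2 were higher in naive and 1 in exposed null mice, and 0 were lower. On that scale 4.12% of all genes were higher in naive and 4.36% in exposed null mice. Igf2r, the large mannose 6-phosphate receptor, differed most, with 5.86 ± 0.953 TPM in exposed null against 1.98 ± 0.274 TPM in exposed wild type mice, and 4.64 ± 0.697 TPM in naive null against 1.26 ± 0.154 TPM in naive wild type mice (SD). Its log2 fold change between genotypes was 1.93 (SE 0.14, edgeR adjusted p = 5.30e-09) in naive and 1.59 (SE 0.13, edgeR adjusted p = 2.04e-08) in exposed mice, at a low level. Lgmn, the peptidase legumain that cleaves cathepsin precursors, was 0.46 higher in naive null mice (edgeR adjusted p = 0.00445), at 284 ± 28.1 TPM against 216 ± 33.2 TPM, and was not called in exposed mice (0.20).

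Of 5 partners and substrates, Cd74, the invariant chain that cathepsin S removes, differed most between genotypes. It averaged 1271 ± 226 TPM in naive null against 276 ± 45.3 TPM in naive wild type mice, and 2140.3 ± 525 TPM in exposed null against 444 ± 77.4 TPM in exposed wild type mice (SD). The log2 fold change was 2.27 (SE 0.18, edgeR adjusted p = 1.04e-08) in naive and 2.30 (SE 0.16, edgeR adjusted p = 2.50e-09) in exposed mice. Exposure also raised it, by 1.10 in null and 1.07 in wild type mice. Psap, the precursor of saposins that cathepsins D and L cut, was 0.26 higher in naive and 0.20 higher in exposed null mice, both called by edgeR alone. Neu1, the neuraminidase held by cathepsin A, rose under exposure by 0.30 in null and 0.32 in wild type mice, values that become -0.02 and -0.05 on the log2(TPM + 1) scale.

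Of 11 genes of lysosomal transcription and nutrient sensing, 6 rose and 1 fell by edgeR under exposure in null mice, with a median of 0.70. In wild type mice 8 rose and 0 fell, with a median of 0.76. The shares over all genes were 21.4% higher and 23.4% lower in null and 20.1% and 20.2% in wild type mice. Limma on log2(TPM + 1) tested 9 of the 11 genes. Of these, 4 rose and 2 fell in null mice and 6 rose and 2 fell in wild type mice, with medians of 0.36 and 0.37. On that scale 12.8% of all genes rose and 51.1% fell in null mice, and 12.1% and 51.1% in wild type mice. Of the 9 genes, those that fell there were Tfeb and Flcn, named after their values were seen. Flcn fell by 0.40 in null and 0.26 in wild type mice on that scale, beside falls of 0.32 and 0.34 for the median of all genes. By edgeR it was not called, at -0.07 in null and 0.13 in wild type mice. Tfeb, the best known regulator of lysosomal genes, had an edgeR log2 fold change of -0.51 (SE 0.15, adjusted p = 0.00910) in null and -0.27 (SE 0.16, adjusted p = 0.197) in wild type mice, and fell by 0.80 and 0.56 on the log2(TPM + 1) scale. Tfe3, a transcription factor that binds CACGTG, rose by 0.80 (SE 0.07, edgeR adjusted p = 1.78e-09) in null and 0.78 (SE 0.07, edgeR adjusted p = 1.15e-08) in wild type mice. Its relative Tfec, which is largely restricted to macrophages, rose by 0.83 and 0.76 and was 0.41 higher in exposed null than in exposed wild type mice. Fnip2, a folliculin partner, rose by 1.34 and 1.58, and Fnip1 by 0.95 and 1.26. Mitf rose in wild type mice alone by the test (1.74, SE 0.42, edgeR adjusted p = 0.00201), while its null value was 0.70 and the interaction did not pass (edgeR adjusted p = 0.559). Between genotypes edgeR called 1 of the 11 higher and 0 lower in each state. All-gene shares were 4.31% higher and 2.55% lower in naive and 4.43% and 4.04% in exposed null mice. In naive mice it was Rragc (0.30, SE 0.09, edgeR adjusted p = 0.0398), which did not pass on log2(TPM + 1) (limma adjusted p = 0.174).

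Other lysosomal hydrolases gave different pictures on the 2 scales. Of 33 tested by edgeR, 5 rose and 13 fell under exposure in null mice and 5 rose and 6 fell in wild type mice, beside the shares over all genes of 21.4% and 23.4% in null and 20.1% and 20.2% in wild type mice, with medians of -0.09 and -0.04. With limma on log2(TPM + 1), 1 of 32 rose and 26 fell in null mice and 4 rose and 24 fell in wild type mice, where 51.1% of all genes fell in each, with medians of -0.47 and -0.43. Mean TPM was lower after exposure for 30 of the 33 in null and 27 in wild type mice, and the typical gene also fell in TPM. The median of all genes on log2(TPM + 1) was -0.32 in null and -0.34 in wild type mice. Between genotypes by edgeR, 13 of the 33 were higher and 2 lower in naive null mice, with a median of 0.18. The shares over all genes were 4.31% and 2.55%. In exposed null mice 8 were higher and 3 lower, with a median of 0.11, beside shares of 4.43% and 4.04%. With limma on log2(TPM + 1), 8 of 32 were higher and 2 lower in naive null mice, beside all-gene shares of 4.12% and 4.85%. On that scale 7 were higher and 3 lower in exposed null mice, beside 4.36% and 4.89%. Acp5, the tartrate-resistant acid phosphatase that osteoclasts make alongside cathepsin K, averaged 1824 ± 95.7 TPM in exposed null and 487 ± 68.9 TPM in naive null mice, and 1099.7 ± 145 TPM in exposed and 273 ± 22.8 TPM in naive wild type mice (SD). Its exposure change was 2.25 (SE 0.10, edgeR adjusted p = 1.16e-13) in null and 2.38 (SE 0.11, edgeR adjusted p = 2.81e-13) in wild type mice. It was also higher in null mice, by 0.90 in naive and 0.77 in exposed mice, and lies 1.10 Mb from Icam1 on chromosome 9. Ppt1, the palmitoyl-protein thioesterase, had 725 ± 49.5 TPM in naive null against 208 ± 14.4 TPM in naive wild type mice and a log2 fold change of 1.88 (SE 0.07, edgeR adjusted p = 2.93e-14). Fuca1, the lysosomal fucosidase, was 1.20 higher in naive and 1.23 higher in exposed null mice. Idua, the iduronidase, was lower in null mice, with log2 fold changes of -0.72 in naive and -0.96 in exposed mice.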

How the data were processed

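Polyadenylated RNA was sequenced as paired reads. STAR, StringTie version 2 and build GRCm39 are named in the submitters' processing notes, with no statement of options or strand, so reads of a gene and of an antisense gene cannot be told apart. The authors deposited estimated counts per gene, which are whole numbers, and TPM values, scaled by the authors for gene length and to one total in every library. The members and gene lists were chosen with earlier results of these data known.

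Groups were taken from the labels. The estimated counts of all 19 libraries entered 1 edgeR 4.0.16 quasi-likelihood model (R 4.3.3) with TMM scaling and the default filter (10 counts, 15 in total), which left 20501 genes. P-values were adjusted by Benjamini-Hochberg at 0.05. The alternatives were limma 3.58.1 on log2(TPM + 1) and log2(TPM + 0.1) for 15642 genes with at least 1 TPM in 4 libraries, DESeq2 1.42.0, no filter, a replicate block, the compared libraries alone, and each library left out. Named companion genes were drawn from the 3 with the smallest adjusted p of each list in any comparison, and not all of those are named. Any member of the lists of other cathepsins, inhibitors, processing genes and partners could also be named. Genes of like pattern are the 3 nearest to each of the 2 most variable cathepsins, without predicted genes. Of 36 pairs of libraries within groups, 0 were identical. Counts set the precision of each value, and the depth per library is given above.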

Additional observations from a re-analysis of the deposited data

How the results depend on the processing

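On log2(TPM + 1) and on log2(TPM + 0.1) with limma, exposure calls became 3 higher and 5 lower in each genotype, and 1 cathepsin was called, higher, in each genotype comparison. DESeq2 called 5 higher in exposed null mice and 1 lower in the interaction. Without the 3 shallow wild type naive libraries, a choice made after seeing the data, wild type naive library 4 was alone in its group. Effect sizes alone are given for that setting. With 1 library left out, 0 to 1 were lower under wild type exposure, 1 to 2 lower under null exposure, 1 to 2 higher in naive null mice, 2 to 4 higher in exposed null mice and 0 in the interaction. The replicate block left all counts of calls as they were, with 6 called under exposure in each genotype, 2 in naive and 3 in exposed null mice. Samples of equal number deviated together with a correlation of at most 0.073. Libraries that correlated best with their own number ran from 0 of 8 for wild type exposure to 6 of 10 between genotypes in exposed mice. These values do not decide whether libraries of equal number were paired, which the labels do not say.

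Signs turned for these log2 values, of which Ctsl alone had passed. In null exposure on the 2 TPM scales, Ctsa became -0.37 on both, Ctsh -0.28 on both and Ctsl -0.17 on both, and Ctsz in naive null mice became -0.011 on both. Ctsa in null exposure was -0.022 without a filter and -0.0079 without the shallow libraries. Ctss in null exposure was 0.00030 under the block, 0.0080 with DESeq2 and 0.012 with only the compared libraries. Without the shallow libraries, wild type exposure gave 0.083 for Ctsh and 0.0073 for Ctss, and Ctsh was 0.036 in naive null mice. In the interaction, Ctsb was 0.0076 under the block, 0.021 on both TPM scales and 0.0019 with DESeq2. Ctsc there was -0.010 without a filter, -0.038 under the block and -0.057 without the shallow libraries, which also gave -0.052 for Ctsh and -0.020 for Ctss. Without a filter Ctss was -0.0092 and Ctsz -0.0016. With 1 library left out, Ctss ran from -0.037 to 0.0086 in wild type and from -0.021 to 0.024 in null exposure, Ctsa from -0.016 to 0.037 in null exposure, and Ctsh from -0.053 to 0.015 in exposed null mice. In the interaction, Ctsb ran from -0.038 to 0.031, Ctsc from -0.060 to 0.060, Ctss from -0.012 to 0.037 and Ctsz from -0.039 to 0.049. The causes were not tested.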
